A study of Mus musculus with 31 samples.

Results

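The genes described here encode most of the nuclear share of the mitochondrial respiratory chain. They were taken by symbol from the deposited table: names that begin with Nduf followed by a, b, c, s or v, the names Sdha, Sdhb, Sdhc and Sdhd, and names that begin with Uqcr, with Cox4 to Cox8 or with Atp5, leaving out 14 symbols marked as pseudogenes by -ps. This gave 98 of the 55487 rows, with 97 distinct symbols because Atp5o has a second row. By name, 41 belong to complex I, 4 to complex II, 8 to complex III, 19 to complex IV and 18 to complex V, and 8 are Ndufaf genes, whose products help to build complex I without being part of it. The rule reads gene symbols only, so it leaves out Cyc1, a nuclear-encoded subunit of complex III. The symbols Ndufa11b, Ndufb4c, Ndufs6b and Cox6c2 are annotated as processed pseudogenes in GENCODE M21.

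Complex I (NADH dehydrogenase) and complex II (succinate dehydrogenase) pass electrons to coenzyme Q, complex III passes them on to cytochrome c, and complex IV (cytochrome c oxidase) passes them to oxygen. Complexes I, III and IV pump protons, and complex V (ATP synthase) uses the return of those protons to make ATP. In the kidney this machinery is densest in the proximal tubule and the thick ascending limb, which reabsorb salt and solutes, and several complex IV subunits come as pairs of genes, a general form and a form known from heart and skeletal muscle, lung or testis.

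Kidney RNA was sequenced in bulk from 31 male mice on the B6 background, 1 library per mouse as the animal numbers in the titles show. By the labels their Nbl1 genotype was WT (wild type) or HET. From 8 weeks of age they were given, for 4 weeks, either cisplatin, a platinum drug that damages the tubule, or PBS, a saline buffer. PBS was given to 8 WT and 7 HET mice and cisplatin to 8 of each genotype. The labels place collection 3 days after the last treatment and also at 11 weeks of age, and these ages do not add up. No source used here states the drug dose or what the Nbl1 allele lacks. All HET cisplatin animals carried numbers in the 600s, and the other groups only in part.

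Libraries held 29231845 to 37301170 counts with PBS and 24650858 to 31915039 counts with cisplatin. The Nbl1 counts, which check the genotype labels, were 166 to 251 in 7 WT PBS libraries, 337 to 833 in the 8 WT cisplatin libraries, 93 to 121 in 5 HET PBS libraries and 146 to 448 in 6 HET cisplatin libraries. The other 5 libraries stood apart from their group: the library labelled WT PBS 6 had 108 counts, those labelled HET PBS 1 and 6 had 3 and 13, and those labelled HET cisplatin 3 and 4 had 37 and 31. All results on genotype rest on the labels as given, and the values without these 5 libraries are given beside them. Of the treated libraries, WT cisplatin 6 and HET cisplatin 6 lay nearest to the PBS libraries on the first principal component.

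Sequences are shown first for Cox6b1 and Cox6b2, which moved in opposite directions with cisplatin and encode the general and the testis form of a small complex IV subunit that faces the intermembrane space. Their coding sequences are 258 and 312 bases long, and 63.4% of the 254 aligned bases are identical, with no identical run longer than 14 bases. The stretches below, from the GENCODE M21 transcripts of GRCm38 and read 5′ to 3′, are the longest part that aligns without a gap (coding bases 31 to 132 of Cox6b1 and 37 to 138 of Cox6b2). Capitals mark the 28 of 102 bases that differ.
Cox6b1: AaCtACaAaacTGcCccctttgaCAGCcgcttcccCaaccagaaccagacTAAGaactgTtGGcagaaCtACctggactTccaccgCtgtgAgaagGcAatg
Cox6b2: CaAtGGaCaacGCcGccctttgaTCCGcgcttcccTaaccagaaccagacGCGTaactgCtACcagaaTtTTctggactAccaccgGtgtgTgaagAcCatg
Differences fall throughout the stretch, so a read over it carries bases that belong to 1 gene only.

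RefSeq start sites of GRCm38.p6 matched 76 of the 97 symbols. In the windows from 250 bases before to 50 bases after the start, both strands were searched for the letters of 5 motifs named for factors of mitochondrial gene expression or of general promoters. Of the 76 members, 15.8% held the NRF1 core GCATGCGC, 14.5% the YY1 core AAGATGGC, 10.5% the ERR motif AAGGTCA, 25.0% the ETS core CCGGAAG bound by GABP and 36.8% the GC box GGGCGGG. The shares among the 12695 tested genes with a window were 5.06%, 4.62%, 4.21%, 17.2% and 47.3%. The end of the ETS letters can overlap the start of the YY1 or the ERR letters by the 3 bases AAG. The first 4 motifs were thus held by a larger share of the members than of tested genes and the GC box by a smaller share, which describes letters and not binding.

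The 150 bases before the start are shown for 4 members that behave differently in what follows, with motif letters in capitals. Cox6b2 rose with cisplatin, its general partner Cox6b1 fell, Sdhb belongs to the complex with the largest median fall, and Atp5g3 is the main gene of ATP synthase subunit c.
Cox6b2, chr7:4753095-4753244, minus strand: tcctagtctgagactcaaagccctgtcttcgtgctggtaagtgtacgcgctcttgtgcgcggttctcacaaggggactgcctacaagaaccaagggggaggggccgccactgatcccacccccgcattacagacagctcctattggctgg
Cox6b1, chr7:30626115-30626264, minus strand: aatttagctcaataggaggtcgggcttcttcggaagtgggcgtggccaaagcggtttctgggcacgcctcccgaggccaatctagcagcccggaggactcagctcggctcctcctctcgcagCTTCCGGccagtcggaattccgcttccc
Sdhb, chr4:140961121-140961270, plus strand: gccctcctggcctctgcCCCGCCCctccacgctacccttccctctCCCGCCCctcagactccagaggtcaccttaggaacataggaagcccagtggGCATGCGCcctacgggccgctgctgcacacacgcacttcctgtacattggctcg
Atp5g3, chr2:73911327-73911476, minus strand: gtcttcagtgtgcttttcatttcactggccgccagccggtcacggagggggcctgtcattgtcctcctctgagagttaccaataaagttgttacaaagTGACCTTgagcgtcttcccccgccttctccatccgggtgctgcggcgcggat
The Cox6b1 stretch holds the ETS core, the Sdhb stretch an NRF1 core and 2 GC boxes, and the Atp5g3 stretch an ERR motif. All stretches are set by the RefSeq start. For Cox6b1 the GENCODE M21 gene, at coordinates given further on, starts within the stretch, and the ETS core lies inside that gene. The far end of the Cox6b2 stretch runs into the neighbouring gene Fam71e2, which lies 131 bases from Cox6b2. None of the 5 letter strings occurs in the Cox6b2 stretch, and its full window holds a GC box outside the bases shown. An empty stretch is not particular to Cox6b2. The matching stretches of Sdha, Uqcrfs1, Ndufv1, Cox7c, Cox8a and Cox5b, which fell with cisplatin in WT, also held none of the strings. Under cisplatin in WT, members with the NRF1 core had a median log2 fold change of −0.62 (12 genes) and those without it −0.73 (63 genes). With and without the ERR motif the medians were −0.75 (8 genes) and −0.67 (67 genes), with and without the ETS core −0.74 (19 genes) and −0.65 (56 genes). With and without the YY1 core they were −0.80 (11 genes) and −0.69 (64 genes), and with and without the GC box −0.62 (27 genes) and −0.75 (48 genes). These medians are descriptions and were not tested.

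The low-count filter kept 92 members, and 89 of these had a mean of at least 1 CPM (counts relative to the TMM-scaled library size) in every group, so nearly all of them passed at any treatment. The 6 that were not tested had almost no reads: Cox7b2, a testis form, had 0 counts in all libraries, Cox8c, another testis form, had 1 count in 1 WT cisplatin mouse, and the pseudogenes Ndufa11b, Ndufs6b and Cox6c2 and the second row of Atp5o had at most 4.01 counts in any library. The Ndufb4c row is identical to Ndufb4 over all 387 coding bases, so reads of these 2 genes cannot be told apart with certainty. Levels between genes are compared in TPM, which is per length. By mean TPM in WT PBS mice the highest members were Atp5b, the catalytic beta subunit of ATP synthase (1332 TPM), Cox6c (753 TPM) and Cox8a (657 TPM), both small complex IV subunits, followed by Atp5md (564 TPM), Cox4i1 (554 TPM) and Atp5g3 (552 TPM). The Ndufaf genes were far lower, between 4.98 TPM (Ndufaf5) and 17.2 TPM (Ndufaf8).

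With cisplatin, the respiratory chain genes fell together in both genotypes. In WT mice 86 of 92 tested members were lower, 1 was higher and 5 did not pass the threshold (edgeR quasi-likelihood test, Benjamini-Hochberg adjusted p under 0.05 over 19268 genes). Of the 89 with at least 1 CPM in every group, 85 were lower and 1 higher in WT, and 84 and 2 in HET. In HET mice 85 were lower, 2 (Cox6b2 and Ndufb6) were higher and 5 did not pass. The 85 were lower in both genotypes, and Ndufa4l2 was the member lower in WT alone, a difference that did not pass its own test. Over all tested genes 29.6% were lower and 33.6% higher in WT, and in HET the shares were 28.0% and 31%. The median log2 fold change of the members was −0.72 in WT and −0.65 in HET, beside 0.06 in both genotypes for all tested genes. The fall passed −1 on the log2 scale in 21 members in WT and in 15 in HET.

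These counts depend on how the libraries are scaled. With library totals in place of TMM, the median of all tested genes moved to 0.45 in WT and 0.46 in HET, and 61.4% of genes in WT and 62.2% in HET were called higher, beside 14.9% and 12.5% called lower. On that scale 67 members were lower in WT and Ndufa7, Ndufb6, Cox6b2 and Atp5g2, 4 in all, were higher. In HET 57 members were lower and 7 higher, those 4 with Ndufa11, Ndufa12 and Ndufa4l2. A scaling shifts all genes nearly alike, so the distance of the member median from that of all genes, −0.78 (WT) and −0.71 (HET), is set by construction to be the same on each scale. Among animals with numbers in the 600s alone, 85 members were lower and 1 higher in WT, and 84 and 1 in HET. In bulk tissue, fewer cells of a type and less RNA per cell cannot be told apart, and cell type markers that moved along are given further on.

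**Figure D1:**
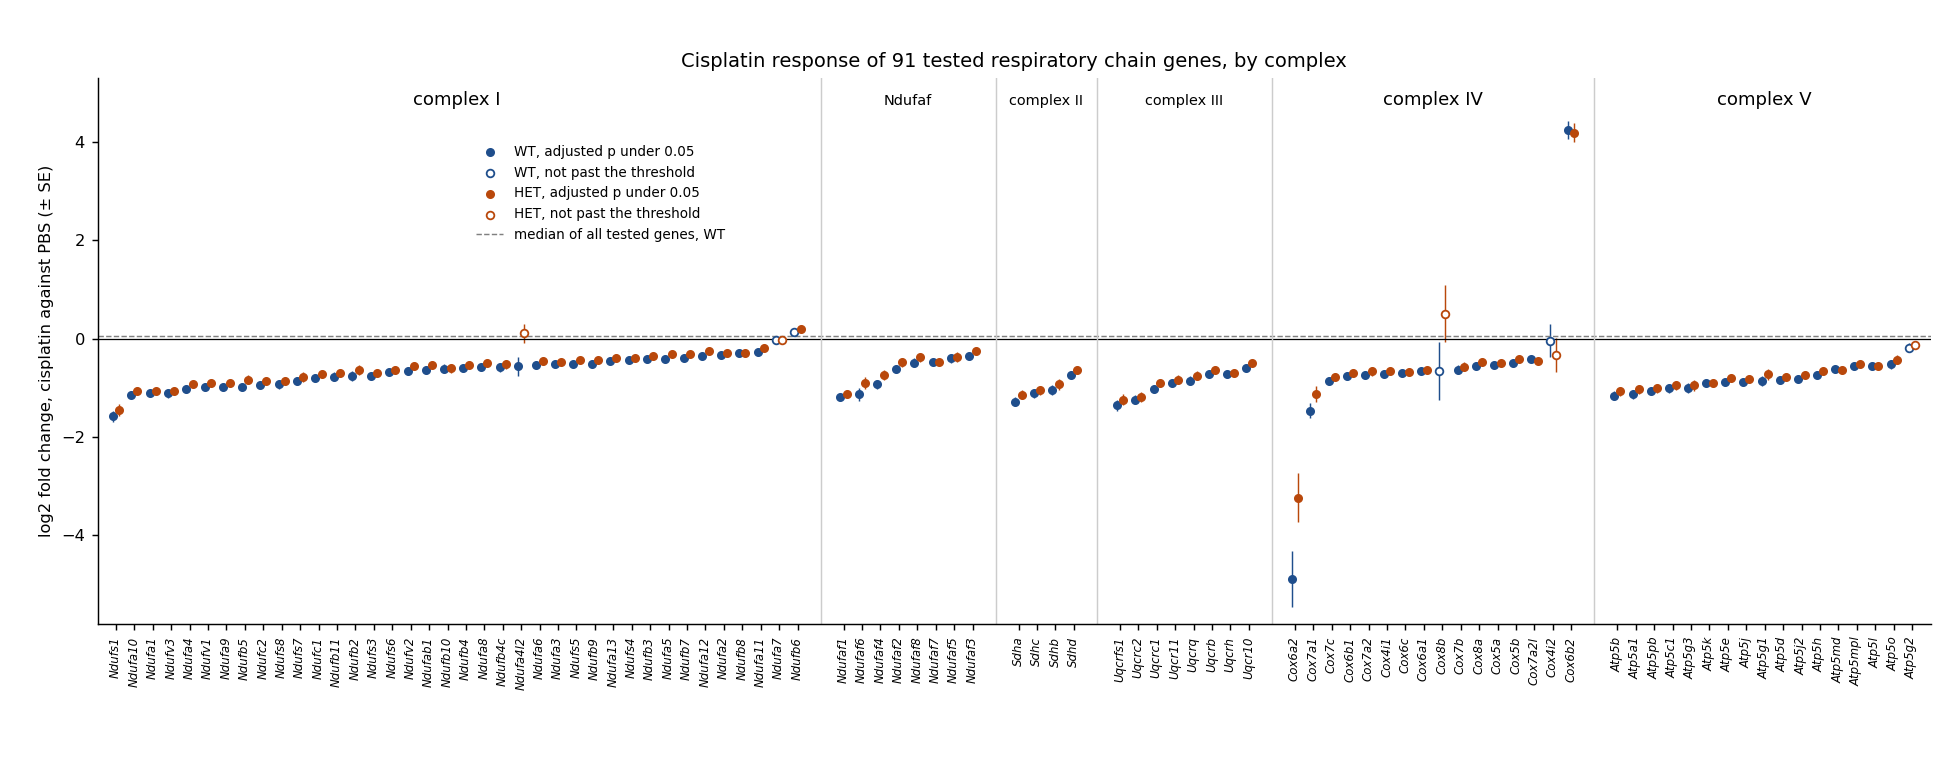
Log2 fold change of cisplatin against PBS (TMM scale, ± SE) for 91 of the 92 tested members, ordered by complex and by the WT value; filled points passed an adjusted p of 0.05 and open points did not. Nearly all points lie below 0, with Cox6a2 at the bottom and Cox6b2 alone at the top.

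The groups were well separated in single mice. In 80 of the 92 members every WT cisplatin mouse was below every WT PBS mouse in CPM, and in 72 members this held in HET, while 17.4% and 14.9% of all tested genes showed it. As a share of all counts, which does not use TMM, the members made up 1.52% ± 0.043 (SD, n = 8) of WT PBS libraries, and WT cisplatin libraries held 1.09% ± 0.13 (SD, n = 8). HET PBS libraries held 1.5% ± 0.036 (SD, n = 7) and HET cisplatin libraries 1.14% ± 0.12 (SD, n = 8). The lowest PBS mouse had 1.44% and the highest cisplatin mice, WT cisplatin 6 and HET cisplatin 6, had 1.33%, so no cisplatin mouse reached the PBS range. Without these 2 mice 87 members were lower in WT and 85 in HET, and without the 5 libraries that stood apart at Nbl1 the counts were 86 and 84.

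**Figure D2:**
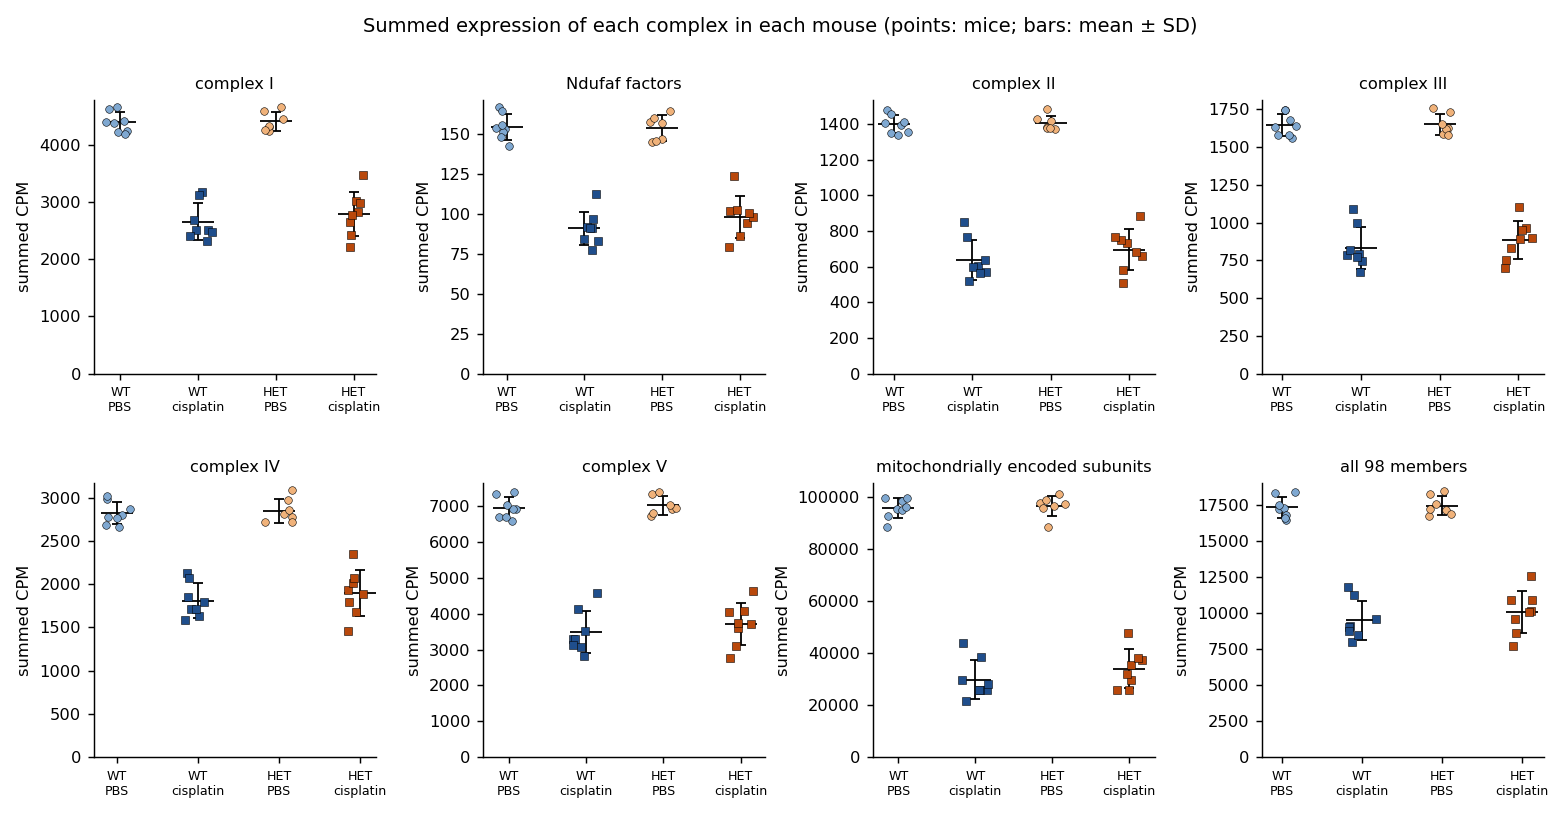
Summed CPM of each complex, of the 13 mitochondrially encoded subunits and of all 98 members in each mouse, with the mean and SD of each group; every axis starts at 0. The cisplatin mice lie below all PBS mice in every panel, with WT cisplatin 4 the lowest WT mouse in each panel, HET cisplatin 8 the lowest HET mouse in all but the mitochondrial one, and HET cisplatin 6 the highest treated mouse.

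Complex I, the entry point for NADH, had a median log2 fold change of −0.61 in WT and −0.53 in HET. Of its 39 tested genes 37 were lower and none higher in WT, and 36 were lower and 1 higher in HET (25 lower and 2 higher in WT with library totals, 20 and 5 in HET). The largest fall was that of Ndufs1, the largest subunit, which carries iron-sulfur clusters (ENSMUSG00000025968, chr1:63143596-63176833, minus strand, GRCm38). Its level was 273 to 307 CPM (median 290) in WT PBS and 68.6 to 157 CPM (median 89.0) in WT cisplatin, and 281 to 312 CPM (median 291) in HET PBS against 73.8 to 128 CPM (median 110) in HET cisplatin. The groups did not overlap in either genotype, and WT cisplatin 6 was the highest of the treated mice. The log2 fold changes of Ndufs1 were −1.58 ± 0.12 (SE) in WT, with an adjusted p of 4.16e-13, and −1.45 ± 0.12 (SE) in HET, with an adjusted p of 5.87e-12 (edgeR). Ndufa10, an accessory subunit, fell by 1.14 ± 0.071 (SE) on the log2 scale in WT.

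Ndufa4, which keeps its complex I name although its product is known to sit in complex IV, was the most abundant of the class (481 TPM in WT PBS, 316 TPM in WT cisplatin) and fell by 1.02 ± 0.075 (SE) on the log2 scale in WT.

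Further accessory genes of complex I lay between these and the least changed members. Falls of about the size of Ndufa10 were seen in WT for Ndufa1, a small membrane arm subunit, at −1.11 ± 0.069 (SE), and for Ndufv3, a subunit of the NADH-binding module, at −1.11 ± 0.086 (SE). Ndufa9, Ndufb5 and Ndufc2 followed at −0.98, −0.98 and −0.94. Ndufc1 was at −0.80, Ndufb11 at −0.77, Ndufb2 at −0.76, Ndufs6 at −0.67, Ndufab1, the mitochondrial acyl carrier protein, at −0.63, Ndufb10 at −0.61 and Ndufa8 at −0.58. Ndufa6, Ndufa3, Ndufs5 and Ndufb9 were between −0.53 and −0.51, and Ndufa13, Ndufs4, Ndufb3, Ndufa5, Ndufb7, Ndufa12 and Ndufa2 between −0.45 and −0.34. In TPM, Ndufa3 was next to Ndufa4 in abundance, at 281 TPM in WT PBS and 260 TPM in WT cisplatin. All of these genes passed the threshold in both genotypes on the TMM scale. With library totals Ndufa12 was called higher in HET (0.15, adjusted p = 0.00909, edgeR) and did not pass in WT (0.03). In neither genotype did Ndufa2 (0.06 in WT, 0.10 in HET), Ndufb7 (0.00 and 0.08), Ndufb3 (−0.03 and 0.04) or Ndufa5 (−0.02 and 0.09) pass. The same held for Ndufs4 (−0.04 and 0.00), Ndufa13 (−0.06 and 0.00), Ndufb9 (−0.12 and −0.04) and Ndufa6 (−0.14 and −0.05). Ndufab1, Ndufa8, Ndufa3 and Ndufs5 were lower in WT on that scale but did not pass in HET. The cisplatin and PBS mice overlapped for Ndufb3 in WT and for Ndufa12, Ndufa2, Ndufa6, Ndufb10 and Ndufb9 in HET.

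At the other end of complex I were the accessory subunits Ndufa7 and Ndufb6. Ndufa7 had 60.5 to 72.5 CPM (median 65.7) in WT PBS and 59.8 to 71.7 CPM (median 64.2) in WT cisplatin, and 64.5 to 70.7 CPM (median 68.1) against 58.5 to 84.5 CPM (median 65.8) in HET. The groups overlapped nearly in full, and the log2 fold changes of −0.02 ± 0.056 (SE) and −0.02 ± 0.058 (SE) did not pass the threshold (adjusted p = 0.83 and 0.819, edgeR). On the scale of library totals the WT value of Ndufa7 was 0.38.

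Ndufb6, a small accessory subunit of the membrane arm, had 83 to 99.3 CPM (median 93.3) in WT PBS and 89.9 to 135 CPM (median 97.5) in WT cisplatin. In HET it had 87.0 to 102 CPM (median 90.7) under PBS and 86.8 to 119 CPM (median 106) under cisplatin. The ranges overlapped in both genotypes, and WT cisplatin 3 stood above the rest. The WT log2 fold change was 0.13 ± 0.07 (SE, adjusted p = 0.103, edgeR). The HET value was 0.20 ± 0.073 (SE, adjusted p = 0.0192, edgeR), and this call was lost among animals in the 600s alone, where it was 0.18. Ndufb6 lies at chr4:40270591-40279421 on the minus strand of GRCm38 and overlaps Smim27 on the other strand. Ndufa11 and Ndufb8 fell least among the complex I genes that passed in WT, by 0.27 and 0.30 on the log2 scale, and with library totals both turned to small positive values (0.12 and 0.09).

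The 8 Ndufaf genes all fell in both genotypes, and their medians were −0.55 (WT) and −0.47 (HET) (4 and 3 of 8 lower with library totals, none higher). Ndufaf1, which is needed for the early membrane arm of complex I, had 23.6 to 27.2 CPM (median 26.4) in WT PBS and 9.72 to 15.5 CPM (median 10.9) in WT cisplatin, without overlap. Its log2 fold change was −1.18 ± 0.08 (SE) in WT and −1.12 ± 0.082 (SE) in HET. Ndufaf6 and Ndufaf4 followed with −1.13 ± 0.13 (SE) and −0.93 ± 0.097 (SE) in WT, then Ndufaf2 with −0.61, Ndufaf8 with −0.49, Ndufaf7, a methyltransferase, with −0.48, and Ndufaf5 with −0.40. The smallest change was that of Ndufaf3, at −0.36 in WT and −0.25 in HET, which were 0.03 and 0.15 with library totals.

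Complex II, whose largest gene Sdha lies at chr13:74322254-74350280 (ENSMUSG00000021577), is also an enzyme of the citric acid cycle, and it had the largest median fall, −1.08 in WT and −0.99 in HET, with 4 of 4 genes lower in both under TMM and under library totals. Sdha, the flavoprotein that oxidises succinate, had 702 to 774 CPM (median 743) in WT PBS and 238 to 424 CPM (median 286) in WT cisplatin. In HET the values were 724 to 780 CPM (median 744) and 241 to 414 CPM (median 347). No treated mouse came near the PBS range, and the highest were WT cisplatin 6 and HET cisplatin 6. The log2 fold changes of Sdha were −1.28 ± 0.092 (SE) and −1.14 ± 0.094 (SE). The membrane anchor gene Sdhc fell by 1.11, the iron-sulfur gene Sdhb by 1.04 and the other anchor gene Sdhd by 0.74 on the log2 scale in WT.

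Complex III had medians of −0.88 (WT) and −0.79 (HET), with 8 of 8 genes lower in both (8 and 7 with library totals). Uqcrfs1, the Rieske iron-sulfur protein that takes electrons from coenzyme Q (ENSMUSG00000038462, chr13:30540308-30545362), had 270 to 321 CPM (median 292) in WT PBS and 82.2 to 168 CPM (median 109) in WT cisplatin. In HET it had 289 to 327 CPM (median 297) and 102 to 168 CPM (median 129). The groups did not overlap, and the log2 fold changes were −1.35 ± 0.11 (SE) and −1.24 ± 0.11 (SE). The core proteins Uqcrc2 and Uqcrc1 fell by 1.24 and 1.03 on the log2 scale in WT. The small subunit genes Uqcr11, Uqcrq, Uqcrh and Uqcrb followed with −0.90, −0.85, −0.72 and −0.72. Uqcr10, another small subunit, was the most abundant of the class in TPM (426 TPM in WT PBS, 389 TPM in WT cisplatin) and fell least, by 0.59 in WT and 0.49 in HET.

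Complex V had medians of −0.86 (WT) and −0.78 (HET), with 16 of 17 tested genes lower and none higher (15 lower and 1 higher in WT with library totals, 14 and 1 in HET). Atp5b, whose product forms ATP in the F1 head (ENSMUSG00000025393, chr10:128083273-128090391), had 2160 to 2464 CPM (median 2253) in WT PBS and 818 to 1391 CPM (median 967) in WT cisplatin. In HET it had 2206 to 2417 CPM (median 2303) and 835 to 1363 CPM (median 1118). The groups lay apart in both genotypes, with WT cisplatin 4 and HET cisplatin 8 the lowest. The log2 fold changes were −1.16 ± 0.089 (SE) and −1.07 ± 0.091 (SE). The 5 genes of the soluble F1 head (Atp5a1, Atp5b, Atp5c1, Atp5d and Atp5e) had medians of −1.01 in WT and −0.95 in HET, and the other 12 tested genes −0.77 and −0.69, a split made after the values were seen and not tested. Among the genes of the stalk and the membrane part, Atp5pb fell by 1.07, Atp5k by 0.90, Atp5j by 0.88, Atp5j2 by 0.81 and Atp5h by 0.73 on the log2 scale in WT. Atp5md, Atp5mpl, Atp5l and Atp5o, the last of which encodes the protein that joins stalk and head, had −0.62, −0.56, −0.55 and −0.52.

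Subunit c, which forms the proton-driven ring, is encoded by Atp5g1, Atp5g2 and Atp5g3 with the same mature protein. Atp5g3 and Atp5g1 fell by 1.01 and 0.86 on the log2 scale in WT and by 0.95 and 0.72 in HET. Atp5g2 had 31.1 to 43.8 CPM (median 38.2) in WT PBS and 27.7 to 42.7 CPM (median 31.5) in WT cisplatin, which overlapped. Its log2 fold changes of −0.18 ± 0.085 (SE, adjusted p = 0.0608) and −0.13 ± 0.088 (SE, adjusted p = 0.211) did not pass in edgeR, and with library totals they were 0.21 and 0.27. The call in WT also turned on the method, since DESeq2 (−0.20) and voom with quality weights (−0.24) called it lower. In shares of subunit c TPM, which do not depend on the scaling of libraries, Atp5g2 stood at 5.7% ± 0.55 (SD, n = 8) in WT controls and at 9.57% ± 1.0 (SD, n = 8) after cisplatin, with all treated mice (7.77% to 11.3%) above all controls (4.97% to 6.66%). Atp5g3 went from 67.3% to 62.9%, and Atp5g1 was at 27% and 27.6%. HET controls stood at 5.84% ± 0.48 (SD, n = 7) and HET cisplatin mice at 9.57% ± 0.81 (SD, n = 8).

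Complex IV had medians of −0.65 (WT) and −0.60 (HET), with 13 of 16 tested genes lower and 1 higher in both genotypes (11 lower and 1 higher in WT with library totals, 9 and 1 in HET). The general subunits moved within a narrow band in WT, from −0.86 ± 0.076 (SE) for Cox7c to −0.42 ± 0.055 (SE) for Cox7a2l, whose product joins complexes III and IV. Between them lay Cox7a2 (−0.74), Cox4i1 (−0.71), Cox6c (−0.69), Cox6a1 (−0.66), Cox7b (−0.63), Cox8a (−0.55), Cox5a (−0.53) and Cox5b (−0.50). Cox4i1, the main gene of the regulatory subunit 4, had 439 to 498 CPM (median 456) in WT PBS and 237 to 329 CPM (median 277) in WT cisplatin, without overlap. The extremes of the class, and of all members, were genes of tissue-restricted forms.

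Cox6b2 was the only member called higher in WT on the TMM scale, and library totals called it higher too. Its level was 1.09 to 1.82 CPM (median 1.55) in WT PBS and 12.1 to 37.8 CPM (median 29.7) in WT cisplatin. In HET it was 1.62 to 2.07 CPM (median 1.67) and 20.6 to 39.0 CPM (median 32.6). Every treated mouse exceeded every control several-fold, and the lowest treated mouse was WT cisplatin 6. In WT the log2 fold change was 4.24 ± 0.18 (SE, adjusted p = 1.01e-18, edgeR), an 18.8-fold rise. In HET it was 4.19 ± 0.19 (SE, adjusted p = 5.05e-18, edgeR), an 18.2-fold rise. It ranked 123rd among the rises of all tested genes in WT and 108th in HET. Cox6b1 had 259 to 299 CPM (median 275) in WT PBS and 137 to 198 CPM (median 157) in WT cisplatin, without overlap, and fell by 0.76 ± 0.073 (SE) on the log2 scale in WT and by 0.70 ± 0.075 (SE) in HET.

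Cox6b1 nevertheless remained the more abundant of the pair. Cox6b1 averaged 469 ± 19 TPM (SD, n = 8) in WT controls, which became 372 ± 49 TPM (SD, n = 8) with cisplatin. Cox6b2 averaged 3.41 ± 0.77 TPM (SD, n = 8) and 84.7 ± 23 TPM (SD, n = 8) in the same mice. Cox6b2 made up 0.719% ± 0.16 (SD, n = 8) of the summed TPM of the pair in WT controls, but 18.7% ± 4.8 (SD, n = 8) in WT cisplatin mice. The HET PBS share was 0.842% ± 0.074 (SD, n = 7), and the HET cisplatin share 19.7% ± 2.9 (SD, n = 8). The treated mice ranged from 7.38% to 22.0% in WT and from 15.7% to 24.7% in HET, all above the highest control at 0.942%. Cox6b2 (ENSMUSG00000051811) lies at chr7:4751792-4753094 on the minus strand of GRCm38, with no other GENCODE M21 gene over it, and Fam71e2 lies 131 bases away. Cox6b1 (ENSMUSG00000036751) lies on the same chromosome and strand at chr7:30616861-30626151. Markers of testis and sperm were at or near 0: none of 6 passed the low-count filter, and their summed level reached at most 0.178 CPM in any mouse.

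**Figure D3:**
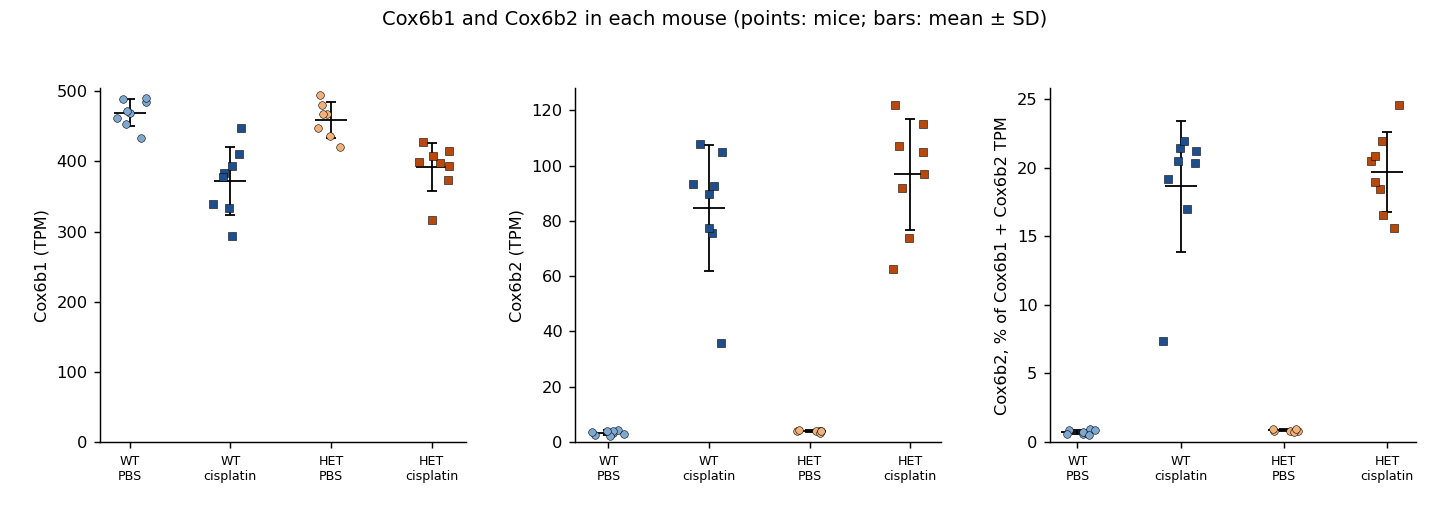
TPM of Cox6b1 and of Cox6b2, and the share of Cox6b2 in their sum, in each mouse of the 4 groups, with mean and SD; all axes start at 0. Cox6b2 is under 5 TPM in all PBS mice and between 35.8 and 122 TPM in the cisplatin mice, where it makes up 7.38% to 24.7% of the pair.

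The heart and muscle forms Cox6a2 and Cox7a1 were lower with cisplatin. Cox6a2 had 8 to 34 counts per library (168 in all) in WT PBS and 0 to 4 counts (5 in all) in WT cisplatin. In HET it had 7 to 25 counts (121 in all) and 0 to 5 counts (16 in all). No treated mouse reached the lowest control, and the highest treated WT mouse, WT cisplatin 7, held 4 of the 5 counts. The fitted log2 fold changes were −4.89 ± 0.57 (SE) in WT and −3.23 ± 0.49 (SE) in HET. Cox6a2 averaged under 1 CPM in each group and passed the low-count filter through its PBS libraries only, so its fall is a description, although it is in the counts of lower members. Cox6a1, the general form, had 99.8% of the COX6A TPM already in WT PBS. Cox6a2 (chr7:128205435-128206387) overlaps Itgad on the other strand, and no source used here states whether reads were counted by strand.

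Cox7a1, the muscle form of subunit 7a, had 6.57 to 7.84 CPM (median 7.19) in WT PBS and 1.74 to 4.05 CPM (median 2.35) in WT cisplatin. In HET it had 6.78 to 8.29 CPM (median 7.77) and 1.65 to 4.89 CPM (median 3.69). The groups did not overlap, and the log2 fold changes were −1.46 ± 0.16 (SE) and −1.12 ± 0.16 (SE). Of the COX7A TPM in WT it held 6.89% ± 0.49 (SD, n = 8) with PBS but 4.05% ± 1.0 (SD, n = 8) with cisplatin, while Cox7a2 held 75.7% and 74.4%. Skeletal muscle markers were near 0, with a summed level of 0.412 to 1.95 CPM over all mice, and of the 2 that could be tested neither passed in WT and 1, Actn3, was higher in HET (1.18 ± 0.32, SE).

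Cox8b, the muscle and brown fat form of subunit 8, varied between mice from 0 to 2.05 CPM in WT controls and from 0 to 1.44 CPM after cisplatin. In HET it was 0.173 to 1.74 CPM and 0.269 to 3.05 CPM. The ranges overlapped, and neither log2 fold change passed (−0.65 ± 0.59, SE, and 0.51 ± 0.58, SE; adjusted p = 0.345 and 0.462, edgeR). Its highest mouse was HET cisplatin 4, which also had the highest summed level of 8 adipocyte markers (285 CPM, against medians of 78.5 CPM in WT PBS and 150 CPM in HET cisplatin), and the part of adipocyte RNA in the Cox8b values was not tested. Cox4i2, the lung form of subunit 4, stayed between 0.0961 and 0.599 CPM in all mice and did not pass either (−0.04 ± 0.34 and −0.33 ± 0.34, SE). Ndufa4l2, the low oxygen-induced partner of Ndufa4, had 1.09 to 2.84 CPM (median 2.22) in WT PBS and 1.09 to 1.74 CPM (median 1.42) in WT cisplatin. It was called lower in WT (−0.56 ± 0.19, SE, adjusted p = 0.0104) but not in HET (0.11 ± 0.19, SE, adjusted p = 0.659, edgeR), the ranges overlapped in both, and the WT call was lost among animals in the 600s alone (−0.41). With library totals the WT call on Ndufa4l2 was lost too (−0.17, adjusted p = 0.427, edgeR). On that scale it was called higher in HET (0.51, adjusted p = 0.0192, edgeR). A limma fit on log2(TPM + 1) gave −0.06 in WT, which did not pass, and 0.41 in HET, which was called higher. Of 12 other genes known to respond to low oxygen, 6 were lower and 3 higher in each genotype.

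**Figure D4:**
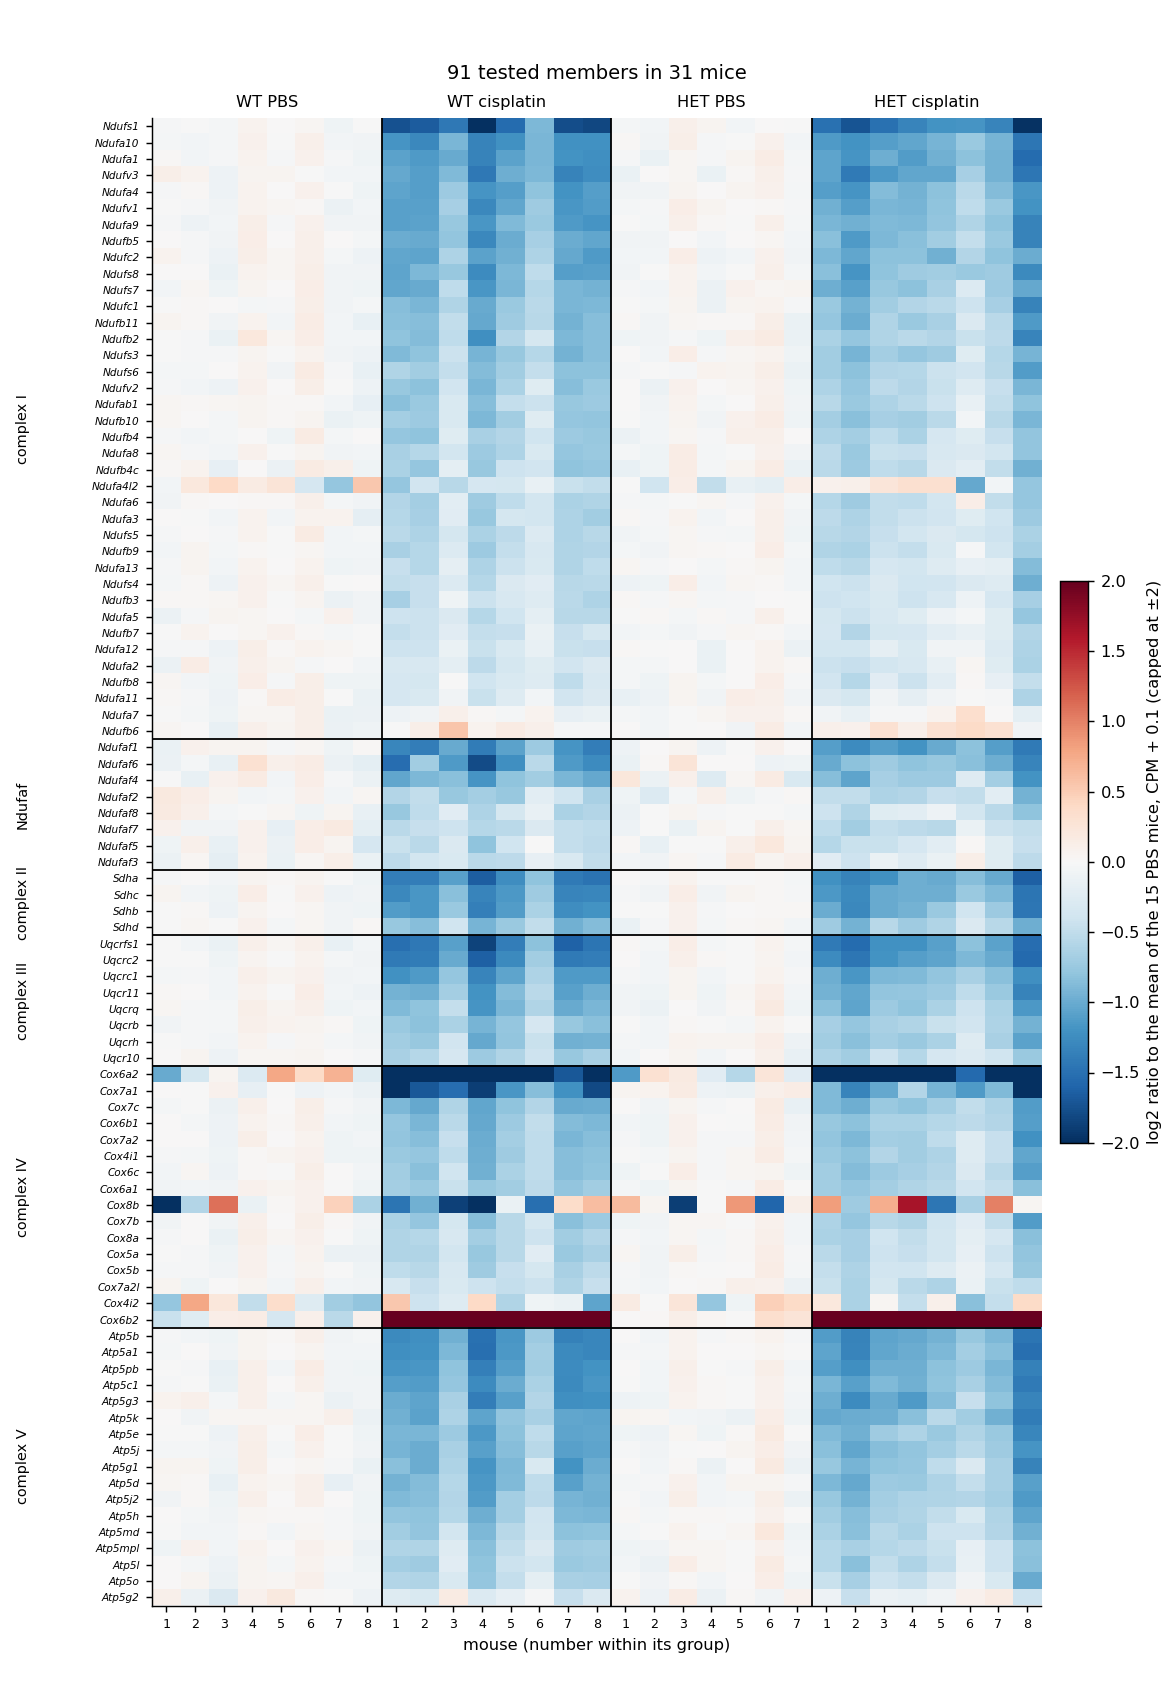
Tested members (91 rows, by complex) in each mouse (columns), as the log2 ratio of CPM plus 0.1 to the mean of the PBS mice, with colours capped at 2 in both directions. The treated mice are blue almost throughout, palest in WT cisplatin 3 and 6 and HET cisplatin 6 and darkest in WT cisplatin 4 and HET cisplatin 8, with Cox6b2 as the single dark red row.

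By class medians, members with long coding sequences had lower fold changes. Leaving out the 2 extremes Cox6b2 and Cox6a2, the 15 members with a coding length of at least 900 bases had a median log2 fold change of −1.13 in WT and −1.04 in HET. The 35 members from 400 to under 900 bases had −0.65 and −0.60, and the 39 members under 400 bases −0.66 and −0.63. Over all tested genes with a coding sequence the same 3 length classes had medians of 0.03, −0.02 and −0.08 in WT. Across the 89 members Pearson's r between log10 coding length and the WT log2 fold change was −0.40 and Spearman's rho −0.31, and with the 2 extremes included (91 members) they were −0.17 and −0.28. In complex I (38 genes) r was −0.54 and in complex V (17 genes) −0.47, whereas in complex IV without the 2 extremes (14 genes) it was 0.47 in WT and −0.01 in HET. Single members depart from this, such as Cox7a1 with 267 coding bases (−1.46) and Ndufaf7 with 1308 (−0.48). These correlations are across genes, which share libraries and are no independent replicates.

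Genotype made no difference that passed the threshold. Between HET and WT, 0 of 92 members were called under PBS, under cisplatin or for the interaction of genotype and drug (edgeR, adjusted p under 0.05), and over all tested genes 0.0%, 0.00519% and 0.0% were called. Nbl1 itself was thus not called under PBS, although its counts in every HET PBS library were below those of 7 WT PBS libraries. The absence of calls therefore does not show equal levels. At an unadjusted p under 0.05 there were 0, 4 and 1 members, beside 5.02%, 5.53% and 5.6% of all genes, and DESeq2 and voom called 0 in each. The 4 under cisplatin were Cox7a1 (0.43 ± 0.16, SE, unadjusted p = 0.00997), Ndufaf3 (0.18 ± 0.074, SE), Ndufa4l2 (0.42 ± 0.19, SE) and Cox8b (1.21 ± 0.58, SE), with adjusted p of 0.874 to 0.886. The interaction was Ndufa4l2 (0.66 ± 0.27, SE, unadjusted p = 0.0192, adjusted p = 0.818). Members lay slightly higher in HET than in WT under cisplatin in 88 of 92 cases (95.7%, against 51.3% of all tested genes), with a median of 0.08. Proximal tubule markers moved along, with a median of 0.13 in this comparison and summed medians of 5519 CPM in WT cisplatin and 7580 CPM in HET cisplatin, and their part was not tested. The single mice overlapped: the summed level of all members was 7988 to 11846 CPM in WT cisplatin and 7732 to 12569 CPM in HET cisplatin. None of these 3 comparisons called a member without the 5 libraries that stood apart at Nbl1.

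The 13 subunits encoded by the mitochondrial genome had lower median fold changes than the nuclear ones, with a wide spread. All 13 were lower in both genotypes, with median log2 fold changes of −1.81 (WT) and −1.78 (HET), among them mt-Nd4 (−2.19 in WT) of complex I, mt-Cytb (−2.10) of complex III and mt-Atp6 (−1.81) of complex V. The smallest falls were those of mt-Nd6 (−0.43 in WT, −0.26 in HET), less than the nuclear median, and of mt-Co1 of complex IV (−1.29 and −1.10). They took 8.37% ± 0.26 (SD, n = 8) of all counts in WT PBS, and after cisplatin 3.41% ± 0.78 (SD, n = 8). The HET PBS share was 8.31% ± 0.23 (SD, n = 7), and that of HET cisplatin 3.84% ± 0.66 (SD, n = 8). For each count on a nuclear member there were 5.18 to 5.92 mitochondrial ones in WT PBS and 2.71 to 3.72 in WT cisplatin, and 5.28 to 5.71 and 2.97 to 3.82 in HET. The ratio does not depend on library scaling, and its groups did not overlap.

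Genes that work with the chain were described by lists, with values on the TMM scale, which library totals raise by about the shift of the median of all genes given above. Of 9 tested complex I assembly factors outside the Ndufaf names all were lower, with a median of −0.71 in WT, for example Ecsit (−1.08) and Tmem70 (−1.15). Of 32 assembly factors of complexes II to V, 25 were lower in WT and 2 were higher, and HET had 23 and 3. Cox15, which makes heme A for complex IV, fell by 1.13 on the log2 scale in HET, while the complex III factors Uqcc2 (0.36) and Ttc19 (0.17) rose in WT. The electron carriers and the enzymes that feed the chain were lower in 16 of 16 rows (15 symbols) in WT and 13 of 16 in HET, with medians of −1.2 and −1.13. Among them were Cycs, cytochrome c itself (−1.16), and Etfdh, which brings in electrons from fatty acid oxidation (−1.16). Also among them was Cyc1, a cytochrome subunit of complex III that the symbol rule does not take in (−0.90). Of 13 genes of coenzyme Q synthesis 11 were lower and none higher in both genotypes, led by Coq8a (−1.63) and Coq9 (−1.39).

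The citric acid cycle was lower in 14 of 14 genes, with a median of −1.10 in WT and −1.01 in HET. Import, cristae and outer membrane proteins were lower in 18 of 18 genes in WT and 15 of 18 in HET, with medians of −0.69 and −0.56. The list of carriers that exchange ATP, phosphate and metabolites was split: 6 of 8 genes were lower, among them Slc25a3 (−0.66) and Slc25a4 (−0.46). Ucp2 (1.07) rose, as did Ckmt1 (0.61), a creatine kinase in this list and not a carrier. Of 17 regulators of mitochondrial biogenesis 14 were lower and 3 higher in both genotypes, with a median of −0.52 in WT. The coactivator Ppargc1a fell by 0.48, the nuclear receptors Esrrg and Esrra by 1.02 and 0.71, Gabpa by 0.79 and the mitochondrial transcription factor Tfam by 0.68, whereas Nrf1 (0.19), Gabpb1 (0.31) and Pprc1 (0.44) rose on the TMM scale, all in WT.

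Markers of the proximal tubule, thick ascending limb, distal convoluted tubule, endothelium and red cells mostly moved in the same direction, while other cell types varied. All 15 proximal tubule markers were lower, with medians of −2.47 (WT) and −2.09 (HET), and their summed level was 41217 to 45138 CPM in WT controls against 2993 to 11203 CPM with cisplatin. In HET it was 42153 to 48233 CPM against 2491 to 10234 CPM. Of 7 thick ascending limb markers 6 were lower and 1 higher in both genotypes, with summed levels of 6676 to 7814 CPM in WT PBS and 1540 to 3830 CPM in WT cisplatin. Of 6 markers of the distal convoluted tubule 6 were lower, and of 7 endothelial markers 7 were lower. Red cell markers were lower in 5 of 5 tested genes, with a median summed level of 715 CPM in WT PBS and 0.239 CPM in WT cisplatin, and the highest treated mice were WT cisplatin 6 (27.3 CPM) and HET cisplatin 6 (25.2 CPM). All 10 tubular injury markers were higher, with medians of 3.90 (WT) and 3.39 (HET), and 7 of 8 macrophage markers were higher in WT. Of 6 principal cell markers 5 were higher in WT, of 6 fibroblast markers 5 were higher, of 6 tested lymphocyte markers 4 were lower, and of 6 intercalated cell markers 2 were lower and 1 higher. Of 5 podocyte markers 2 were lower and 2 higher in WT. Their part in the fall of the respiratory chain genes was not tested.

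Within each treated group, mice with more proximal tubule marker RNA also had more respiratory chain RNA. Between the log2 summed CPM of the 15 markers and that of the members without Cox6b2, Pearson's r was 0.96 (exact permutation p = 0.000174, adjusted p = 0.00067) and Spearman's rho 0.98 (exact permutation p = 0.000397, adjusted p = 0.00238) in the 8 WT cisplatin mice. In the 8 HET cisplatin mice r was 0.94 (exact permutation p = 0.000223, adjusted p = 0.00067) and rho 0.93 (exact permutation p = 0.00223, adjusted p = 0.0067). Without the 2 mice farthest from the median marker level r was 0.96 in WT and 0.90 in HET, and among the 6 WT cisplatin animals in the 600s it was 0.96. The tests are two-sided, p-values were adjusted over 6 relations, and all values in a mouse share a library and its scaling.

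For Cox6b2 no such relation passed in either group, and 8 mice per group cannot show that none exists. Its r with the proximal tubule markers was −0.35 (rho 0.17) in WT mice, with exact permutation p of 0.378 and 0.703, and 0.52 (rho −0.12) in HET mice, with exact permutation p of 0.187 and 0.793. With the other members r was −0.38 (rho 0.24) in WT, with exact permutation p of 0.371 and 0.582, and 0.24 (rho −0.19) in HET, with exact permutation p of 0.567 and 0.665. Adjusted over the 6 relations, these p-values for r were 0.373 to 0.567. Without the 2 mice farthest from the median marker level, r with the markers changed sign, to 0.76 in WT and −0.60 in HET. Without the 2 mice farthest from the median Cox6b2 level, r with the members changed sign, to 0.80 and −0.78. The r values of Cox6b2 thus rest on single mice.

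**Figure D5:**
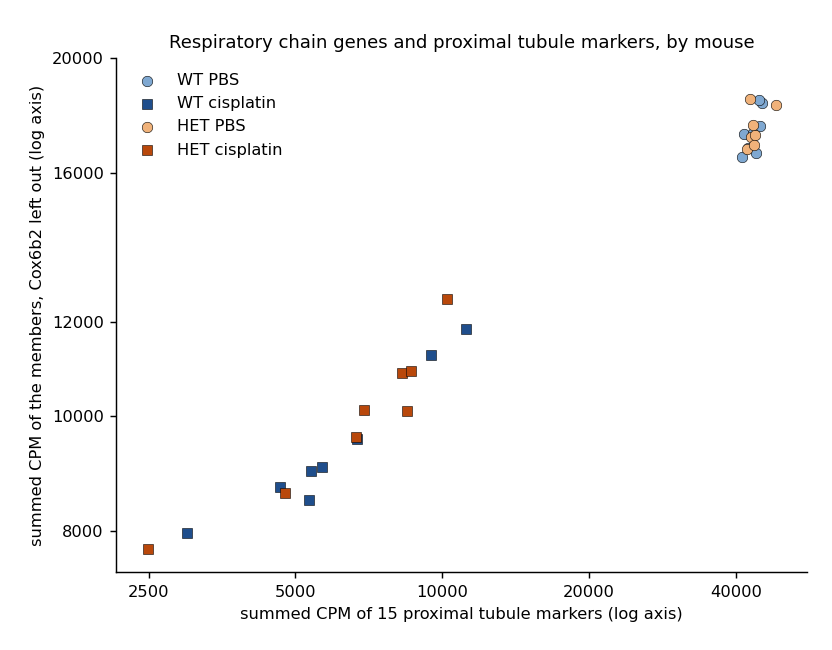
Summed CPM of 15 proximal tubule markers against summed CPM of the members without Cox6b2, 1 point per mouse, both axes logarithmic. The PBS mice form 1 cluster at the upper right, and the cisplatin mice of both genotypes run along a rising line from HET cisplatin 8 to WT cisplatin 6 and HET cisplatin 6.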

How the data were processed

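Kidney mRNA libraries of 31 mice were analysed. Per the submitters' processing notes, the authors used fastp, STAR and featureCounts with GRCm38 and mm10; no source used here states their versions or the strand setting. The deposited table holds expected counts (12.52% of values are not whole, for a reason not stated), TPM and FPKM. TPM values were used as the authors deposited them. FPKM values, as the authors deposited them, were a constant multiple of TPM within 0.164% and were not used further.

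Expected counts were rounded and fitted in edgeR 4.0.16 (R 4.3.3) with TMM scaling, filterByExpr by group, 4 group means and the quasi-likelihood test, with Benjamini-Hochberg adjustment over all 19268 tested genes. CPM values use TMM library sizes. Each mouse has its own animal number, so p-values measure the spread between mice. Alternatives used DESeq2 1.42.0, limma 3.58.1, other scalings, filters and animals. The fit was tested on simulated counts. Coding sequences came from GENCODE M21 and promoters from RefSeq (GRCm38.p6). Exact permutation tests went through every pairing of the values with NumPy 2.4.6, and r and rho came from SciPy 1.17.1. Named in each class were the 2 members with the highest TPM, the 3 largest falls and the 3 smallest falls or rises in WT, besides tissue-restricted forms and members that did not pass. The values of 1 tested member are not reported here, though it is in the counts and sums. Members and lists were chosen with earlier results of these data known.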

Additional observations from a re-analysis of the deposited data

Results flagged for a closer look

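The 84 checks within a group covered chosen single members, the class sums and the sum of all members. Of these, 5 had 1 mouse far from the others, all of them single members. Chance alone gives this in about 1 in 20 groups. Cox6a2 was at 0.135 CPM in WT cisplatin 7, with the other 7 mice at 0 to 0.0329 CPM. Ndufs1 was at 157 CPM in WT cisplatin 6, while its other 7 group members had 68.6 to 108 CPM. Ndufb6 stood out in WT cisplatin 3 at 135 CPM, where the others had 89.9 to 103 CPM, and in HET PBS 6 at 102 CPM, where the others had 87.0 to 91.9 CPM. Ndufa7 was at 84.5 CPM in HET cisplatin 6, against 58.5 to 70.3 CPM in the remaining mice.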

How the results depend on the processing

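The cisplatin comparisons kept between 86 and 87 lower members in WT and between 84 and 85 in HET when single mice were left out, with 1 and 2 higher; the medians then ran from −0.77 to −0.69 in WT and from −0.70 to −0.60 in HET, and the genotype and interaction counts stayed at 0. Library totals gave 4 (WT) and 7 (HET) higher members and medians of −0.33 and −0.25. A limma fit on log2(TPM + 1) gave 58 lower and 8 higher of 90 tested in WT, 51 lower and 12 higher in HET, and medians of −0.29 and −0.19. Animals numbered in the 600s alone gave 1 higher in HET. Without WT cisplatin 6 and HET cisplatin 6, a setting chosen after seeing the data, the medians were −0.77 and −0.71. Among members called on either scale, signs turned or came to 0. In WT with library totals these were Ndufaf3 0.03, Ndufaf5 0.00, Ndufa11 0.12, Ndufa12 0.03, Ndufa2 0.06, Ndufa7 0.38, Ndufb7 0.00, Ndufb8 0.09 and Atp5g2 0.21, and with TPM Ndufaf3 0.17, Ndufaf5 0.06, Ndufaf7 0.10, Ndufa11 0.16, Ndufa12 0.12, Ndufa2 0.10, Ndufa5 0.15, Ndufa6 0.05, Ndufa7 0.44, Ndufb3 0.01, Ndufb7 0.00, Ndufb8 0.13, Ndufs4 0.12, Cox7a2l 0.02 and Atp5g2 0.25. In HET with library totals these were Ndufaf3 0.15, Ndufaf5 0.03, Ndufaf8 0.03, Ndufa11 0.22, Ndufa12 0.15, Ndufa13 0.00, Ndufa2 0.10, Ndufa5 0.09, Ndufa7 0.38, Ndufb3 0.04, Ndufb7 0.08, Ndufb8 0.10, Ndufs4 0.00 and Atp5g2 0.27, and with TPM Ndufaf3 0.23, Ndufaf5 0.09, Ndufaf7 0.11, Ndufa11 0.28, Ndufa12 0.24, Ndufa13 0.06, Ndufa2 0.16, Ndufa5 0.28, Ndufa6 0.13, Ndufa7 0.47, Ndufb3 0.11, Ndufb7 0.11, Ndufb8 0.16, Ndufb9 0.02, Ndufs4 0.17, Ndufs5 0.03, Uqcr10 0.01, Cox5b 0.07, Cox7a2l 0.01, Atp5g2 0.33 and Atp5o 0.02. Cox4i2, called on neither scale, was 0.35 and 0.08 with library totals. Both settings lack the TMM factors, which differ between treated and control libraries. In HET, the call on Ndufa11 was lost in 7 settings that left out 1 mouse. No paired analysis was possible because each mouse has its own animal number and replicates are numbered in accession order only. Genes with few counts, such as Cox6a2, Cox8b and Cox4i2, are limited by depth.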
